A study of Caenorhabditis elegans with 2 samples.

Results

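The autosomal distal intergenic peaks of NHR-71 are peaks of signal in immunoprecipitated chromatin on the 5 autosomes. They lie outside every protein-coding gene and away from every protein-coding gene start. A peak was taken when its summit, the base of highest signal, was in no protein-coding gene body and in no window reaching from 1000 bp before to 200 bp after an annotated start. This left 1852 of the 6651 autosomal peaks in the set that the authors kept as reproducible by their irreproducible discovery rate (IDR), which also holds 1889 peaks on X. Within the IDR set, annotation alone decided membership, and signal entered only through the authors' IDR threshold.

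NHR-71 belongs to the nuclear hormone receptors of the nematode Caenorhabditis elegans, and its positions were mapped by sequencing of immunoprecipitated chromatin. All worms were hermaphrodites of strain OP480, genotype unc-119(tm4063) III; wgIs480, in which an integrated transgene makes NHR-71 with a C-terminal GFP-FLAG tag that an anti-GFP antibody recovers. They were bleached, starved to hold them at the L1 stage, and taken whole 6 h after synchronization, as 2 biological replicates of 1 group. The tagged protein comes from a transgene in an unc-119 mutant, the signal is a mixture of all tissues of the larva, and neither untagged worms nor the control library were analysed here.

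Nuclear hormone receptors are transcription factors with a zinc finger domain that binds DNA and a second domain that can bind a small lipophilic ligand. The family is strongly expanded in nematodes, where members govern metabolism, moulting and development. In the compact worm genome most known regulatory sequence sits just upstream of genes, while enhancers, elements that act on a gene from a distance, occur in introns and in longer stretches between genes. Such stretches also hold small RNA genes with promoters of their own, among them tRNA genes, whose promoter lies inside the transcribed sequence.

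The sequences under the strongest of these peaks are shown first, as the 150 bp centred on the summit, on the + strand of ce11 as given by RefSeq. Capitals mark the words searched for on either strand, and the summit is base 76 of each. The words were TGATAA with its variant AGATAA, the receptor word AGGTCA, the palindrome CACGTG, the AP-1 type word TGACTCA, the repeat GAGAGAG, the word CTGTTTC, the tRNA word GGTTCGA, the GC-rich word GGGCGG and the run TTTTTTT. The first 6 are the strongest peaks for which sequence is shown, named by the nearest protein-coding gene start.
cmd-1, chrV:1151418-1151567: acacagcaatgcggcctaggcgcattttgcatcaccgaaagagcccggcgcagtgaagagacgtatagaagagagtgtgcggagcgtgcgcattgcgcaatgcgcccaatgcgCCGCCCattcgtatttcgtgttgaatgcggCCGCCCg
sup-26, chrIII:4282141-4282290: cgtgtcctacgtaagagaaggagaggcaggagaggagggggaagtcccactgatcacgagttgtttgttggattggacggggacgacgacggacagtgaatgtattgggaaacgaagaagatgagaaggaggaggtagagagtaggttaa
hif-1, chrV:20778345-20778494: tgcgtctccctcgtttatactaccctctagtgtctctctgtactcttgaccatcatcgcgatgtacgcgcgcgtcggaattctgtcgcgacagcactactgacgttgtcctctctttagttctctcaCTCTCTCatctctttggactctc
T04C4.3, chrIV:2219555-2219704: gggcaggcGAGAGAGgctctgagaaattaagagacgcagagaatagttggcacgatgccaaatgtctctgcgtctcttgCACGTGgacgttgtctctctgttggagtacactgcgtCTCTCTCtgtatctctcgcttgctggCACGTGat
ins-13, chrII:5543487-5543636: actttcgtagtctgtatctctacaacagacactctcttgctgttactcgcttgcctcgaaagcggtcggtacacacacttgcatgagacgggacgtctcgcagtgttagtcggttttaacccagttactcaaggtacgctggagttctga
F54F12.1, chrIII:13061236-13061385: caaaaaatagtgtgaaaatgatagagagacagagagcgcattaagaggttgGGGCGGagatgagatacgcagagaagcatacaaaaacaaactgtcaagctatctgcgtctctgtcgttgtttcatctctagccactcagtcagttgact
These windows are rich in G and C for a worm genome, at 43.3% to 59.3%. The T04C4.3 window held 2 copies each of CACGTG and of GAGAGAG in either orientation, the hif-1 window held CTCTCTC, the reverse complement of GAGAGAG, and the sup-26 and ins-13 windows held none of the words. A further word, CGCAGAG, was seen in the T04C4.3 and F54F12.1 windows after the sequences had been read, where it is not in capitals.

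The next 3 windows belong to peaks beside a tRNA gene, a snoRNA gene and a miRNA gene, each the strongest of its kind for which sequence is shown, which are the non-coding neighbours described further on.
K02B2.6, beside the tRNA gene B0350.t1, chrIV:5967080-5967229: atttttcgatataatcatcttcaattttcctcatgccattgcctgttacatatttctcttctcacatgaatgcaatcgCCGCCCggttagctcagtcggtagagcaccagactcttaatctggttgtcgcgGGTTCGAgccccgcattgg
tmem-231, beside the snoRNA gene T26A8.6, chrIV:8428709-8428858: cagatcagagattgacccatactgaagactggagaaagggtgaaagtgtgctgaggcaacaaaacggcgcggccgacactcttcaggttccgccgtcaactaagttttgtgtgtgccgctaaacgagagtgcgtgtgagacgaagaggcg
hrg-5, beside the gene cel-mir-53, chrIV:11027747-11027896: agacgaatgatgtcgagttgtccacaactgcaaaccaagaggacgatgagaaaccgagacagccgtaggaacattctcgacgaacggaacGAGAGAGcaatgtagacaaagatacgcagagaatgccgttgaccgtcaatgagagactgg
The first of these runs into the tRNA gene itself and holds GGTTCGA, a sequence of the promoter element inside tRNA genes known as the B box. The window at hrg-5 held GAGAGAG and, further on, CGCAGAG.

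The strongest distal intergenic peak lay 4778 bp upstream of cmd-1, which encodes calmodulin, the calcium sensor of the cell. It covered chromosome V from 1151207 to 1151888, inside the long non-coding RNA gene linc-128, and its signal was 4323 in the IDR set (2347 in replicate 1, 1988 in replicate 2). Signal here is the authors' own value per peak on a scale that is not given in the sources used here, so it serves only to rank peaks within a list. Both replicates placed this peak near the top, at rank 11 of the replicate 1 list and rank 9 of the replicate 2 list. A peak almost as strong lay 1992 bp upstream of sup-26, an RNA-binding protein, on chromosome III from 4281835 to 4282743, with 4304 in the IDR set (2519 in replicate 1, 1841 in replicate 2).

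The next peak by signal lay 1987 bp upstream of hif-1, the hypoxia-inducible transcription factor, on chromosome V from 20778028 to 20778835. Its signal was 3770 in the IDR set (1935 in replicate 1, 1838 in replicate 2). Another of the 25 strongest lay 1757 bp upstream of egl-9, the prolyl hydroxylase that marks HIF-1 for degradation when oxygen is present, with 1845 in the IDR set (885 in replicate 1, 968 in replicate 2). The egl-9 peak, on chromosome V from 10466477 to 10467070, was inside the non-coding RNA gene F22E12.9.

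The peak at T04C4.3 lay 2774 bp upstream of that gene, between it and fnip-2, which point away from each other, and had 3644 in the IDR set (2062 in replicate 1, 1584 in replicate 2). The peak assigned to ins-13, an insulin-like peptide gene, lay 1302 bp downstream of its start and only 36 bp from sls-2.2, a gene for an SL2 spliced leader RNA, the short exon that is joined to the front of many worm mRNAs. It had 3037 in the IDR set (1703 in replicate 1, 1336 in replicate 2). A second summit of 1120 stood in the same interval, 84 bp from sls-2.2. Of the following peaks, F54F12.1 had 1 summit of 2442 at 5869 bp and another of 1857 at 7197 bp upstream, so 24 genes account for the 25 strongest peaks.

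Other genes nearest to the 25 strongest peaks had varied roles. The peak upstream of ogt-1, the enzyme that adds O-linked N-acetylglucosamine to proteins, reached 2039 in the IDR set. The one 8276 bp upstream of aakg-1, a gamma subunit of the energy sensor AMP kinase, had 1974, and the one upstream of letm-1, a protein of the inner mitochondrial membrane, had 1802. The peak of 2246 at tgt-1, a tRNA-modifying enzyme whose start was nearest, lay between it and the convergent gdh-1, glutamate dehydrogenase, and was inside the non-coding RNA gene ZK829.13. Among transcription factor genes, the signal was 1935 upstream of the receptor gene nhr-88 and 1814 upstream of fos-1, a bZIP factor of the AP-1 type. Of the 25 peaks, 20 were upstream of the nearest start, and their distances ran from 1012 to 8276 bp. Each of the 25 was within the first 190 positions of replicate 1 and the first 167 of replicate 2.

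**Figure D1:**
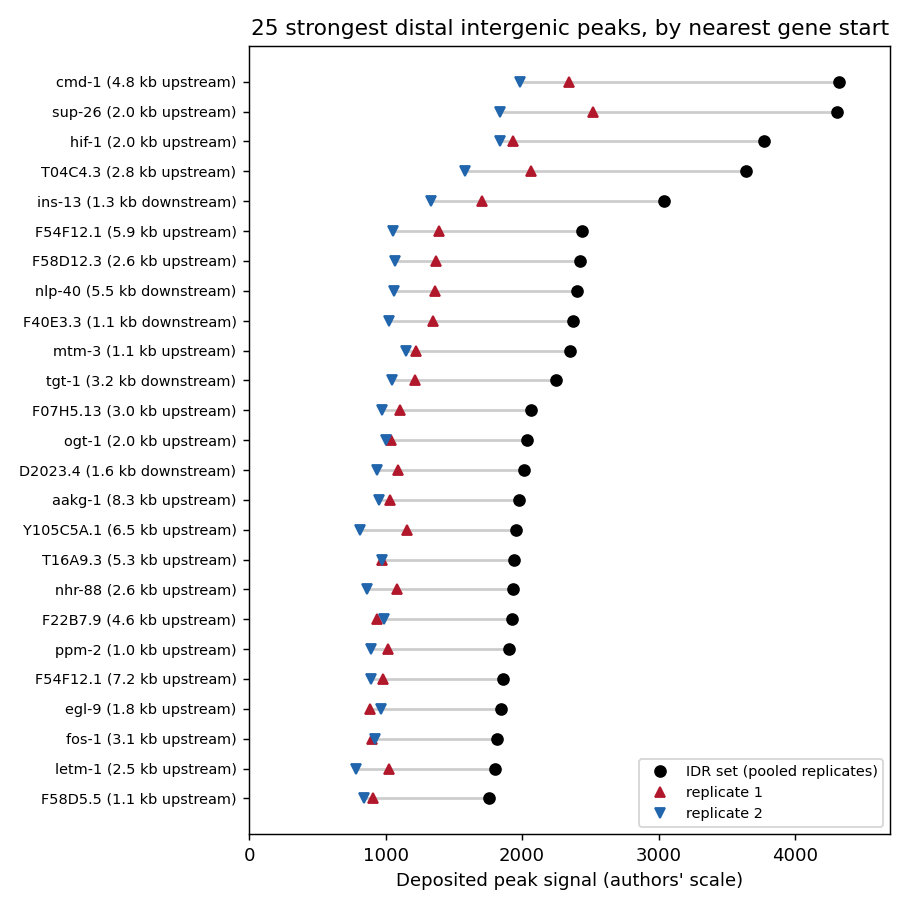
Signal of the 25 strongest distal intergenic peaks (horizontal axis, the authors' scale), each named by the nearest protein-coding gene start with its distance, in the IDR set from both replicates (circles), replicate 1 (triangles up) and replicate 2 (triangles down). The IDR set signals run from 1757 to 4323, and the log2 ratio of replicate 2 to replicate 1 runs from -0.51 to 0.13.

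As a class these peaks had lower signal than promoter peaks and a median near that of intron peaks. Their median signal in the IDR set was 174 (quartiles 117 and 319, n = 1852), against 251 (142 and 488, n = 2924) for promoter peaks and 176 (116 and 317, n = 1588) for intron peaks. In the replicate lists, each reduced to as many of its strongest positions as the IDR set holds, the distal median was 93.0 in replicate 1 and 89.4 in replicate 2, against 128 and 121 for promoters. The ratio of the distal to the promoter median was 0.732 ± 0.00664 (SD, n = 2 replicates), so the lower signal of distal peaks was present in both. A signal above 1000 was reached by 80 distal peaks (4.32%) and by 261 promoter peaks (8.93%). With 2 replicates an exact test over samples could not pass any usual threshold, so differences between classes of peaks are given as descriptions, with no test.

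The distal share was smaller among stronger peaks. Distal peaks made up 27.8% of autosomal IDR peaks (95% Wilson interval 26.8% to 28.9%, which like all such intervals here covers the counting of peaks only), 23.7% of the 3000 strongest and 19.5% of the 1000 strongest (17.2% to 22.1%). They held 4 of the 25 strongest autosomal peaks. In the replicate lists the share was 26.8% in replicate 1 and 27.2% in replicate 2, or 27.0% ± 0.290 (SD, n = 2). The window that defines a promoter sets this share, which was 18.0% with a window from 2000 bp upstream and 35.1% with one from 500 bp. At the edge of the window the signals were alike, with a median of 181 for the 144 distal peaks 1000 to 1200 bp upstream of a start and 184 for the 195 promoter peaks 800 to 1000 bp upstream. At the threshold of the IDR set, the weakest distal peak had 84.2 and the strongest pooled position by the same rule that missed it had 84.1.

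**Figure D2:**
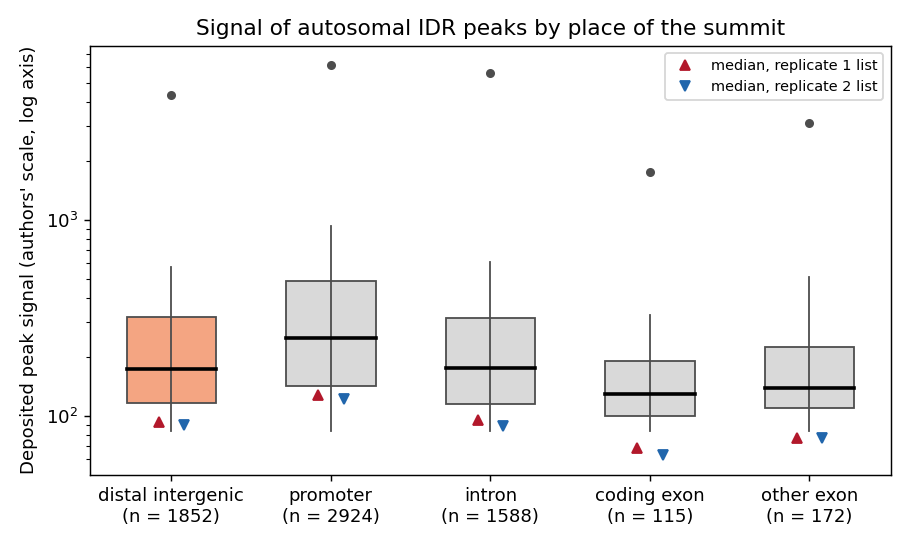
Peak signal on a log axis (the authors' scale) for autosomal IDR peaks by the place of the summit: boxes are quartiles, the bar in each is the median, lines run from the lowest value to the 90th percentile and dots are the maximum, while triangles give the median in each replicate list. The distal intergenic median of 174 is below the promoter median of 251 and next to the intron median of 176.

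Most of these peaks were found in both replicate lists. The authors kept the IDR set for reproducibility between these same replicates, so this recovery is largely fixed in advance. The same holds for the correlations and ratios below, and none of them is an independent check. Of the 1852, 1494 had their summit inside one of the strongest positions of both replicate lists, cut to the length of the IDR set, which is 80.7% (78.8% to 82.4%), against 88.3% of promoter peaks, 81.5% of intron peaks and 83.7% of all autosomal IDR peaks. Because the replicate lists are cut by signal, weak peaks are bound to be missed more often: in 4 groups of 463 peaks each, from weakest to strongest, it was 35.2%, 91.1%, 97.6% and 98.7%. In the full replicate lists 1822 peaks (98.4%) were found in both, against 98.6% of all autosomal IDR peaks. There, 30 peaks had no position over their summit in 1 replicate, 20 of them in replicate 1 and 10 in replicate 2, and 7 of the 30 did have a summit of that replicate within 100 bp. The largest of the 30 was upstream of M04B2.7, with 537 in the IDR set and 229 in replicate 2, while the nearest replicate 1 summit was 2716 bp away. The peak 2041 bp upstream of daf-16, the FOXO factor of insulin signalling, had 406 in the IDR set and 224 in replicate 1, and replicate 2 had a summit 67 bp away but no interval over it. Across peaks, the signals of the replicates correlated with a Spearman's rho of 0.852, as a description over 1822 peaks of the same pair of libraries. The rho was 0.931 for promoter peaks, 0.855 for intron peaks and 0.890 for all autosomal IDR peaks. Set against replicate 1, replicate 2 had a median log2 ratio of -0.07 with an SD of 0.50 over distal peaks. The replicates were more than 2-fold apart at 94 distal peaks, or 5.16% of those in both full lists. This share was 3.33% for promoter peaks, 5.29% for intron peaks and 4.63% for all autosomal IDR peaks.

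Every autosome carried these peaks, with 341 on chromosome I, 374 on II, 338 on III, 382 on IV and 417 on V. Distal intergenic sequence by the same rule amounts to 19.4 of 82.6 Mb, and it held 95.5 of these peaks per Mb. The rest of the autosomes held 76.0 other peaks per Mb. That rest pools promoter windows, exons and introns, and the density in promoter windows alone was not measured. The density was 121 per Mb on I, 104 on II, 121 on III, 76.1 on IV and 80.7 on V. When each autosome was cut into 3 equal lengths, the middle one held 146 distal peaks per Mb and the outer ones 78.9 on the left and 69.1 on the right. Other peaks had the same arrangement, with 109 per Mb in the middle, 56.7 on the left and 60.6 on the right. In the replicate lists the density was 139 ± 1.92 per Mb in the middle and 72.9 ± 0.681 in the outer parts (SD, n = 2). On X, which is not part of the class, 723 of 1889 peaks were distal by the same rule, at 126 per Mb and with a median signal of 171.

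Peaks were nearer to gene starts than distal sequence at large. The median distance from summit to the nearest protein-coding start was 2341 bp (quartiles 1511 and 3730 bp, range 326 to 28650 bp), against a median of 2715 bp over all distal intergenic bases. It was 2305 ± 18.7 bp in the replicate lists (SD, n = 2). The nearest start was downstream of the summit, so that the peak lay on its upstream side, for 1418 peaks, or 76.6% (74.6% to 78.4%), whereas 65.4% of distal bases are on that side. The replicate lists gave 76.4% ± 0.543. Upstream, the density was 130 per Mb at 1 to 2 kb, 118 at 2 to 3 kb, 106 at 3 to 5 kb, 85.3 at 5 to 10 kb and 45.2 beyond 10 kb. Downstream it was 99.5 per Mb under 1 kb, 52.4 at 3 to 5 kb and 41.2 beyond 10 kb. The median signal was 182 at 1 to 2 kb upstream, 160 at 3 to 5 kb and 140 for the 20 peaks over 10 kb upstream, and it was 332 for the 15 peaks over 10 kb downstream.

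**Figure D3:**
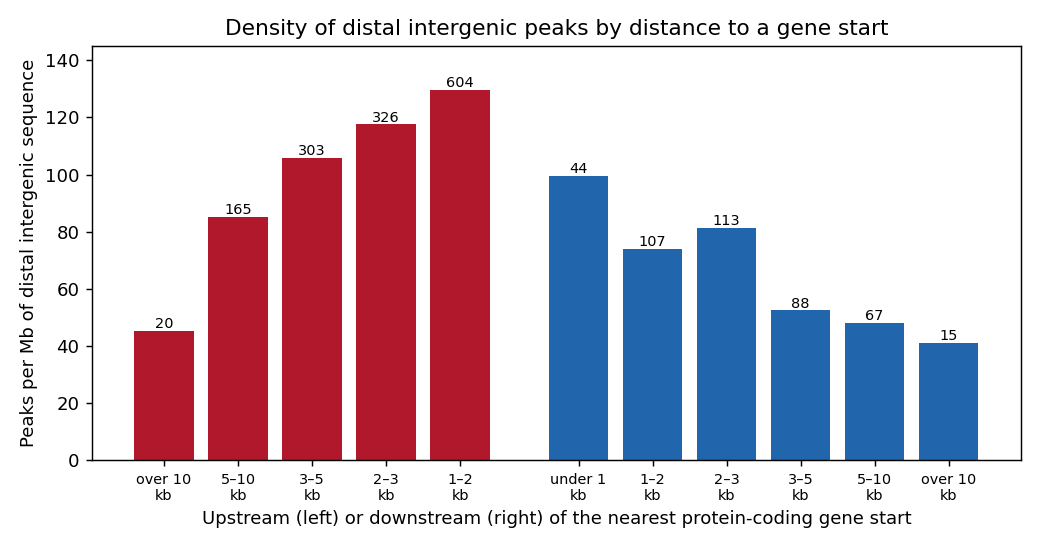
Distal intergenic peaks per Mb of distal intergenic sequence (vertical axis) by distance upstream (left) or downstream (right) of the nearest protein-coding gene start, with the number of peaks above each bar. Density is highest at 1 to 2 kb upstream, at 130 per Mb, and lowest beyond 10 kb on the downstream side, at 41.2 per Mb.

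The orientation of the flanking genes separated the peaks in the same way. Between divergent genes, which are transcribed away from each other, there were 651 peaks, or 117 per Mb of distal sequence of that kind. Tandem genes flanked 1039 peaks, or 100 per Mb. Convergent genes, whose ends face each other, flanked 161, or 47.1 per Mb. Convergent intervals took 8.69% of the peaks and hold 17.6% of distal sequence, while the share of peaks there was 8.71% ± 1.12 in the replicate lists (SD, n = 2). Many had another of the class nearby, 1097 of them (59.2%) within 5 kb, and the 1852 peaks fell in 1136 intergenic intervals with a median length of 6475 bp. The median distance to a promoter peak was 6690 bp.

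In all, 1315 genes had their start nearest to a distal peak, 967 of them to 1 peak, 237 to 2, and 111 to 3 or more. The most, 9, lay between 2092 and 11595 bp upstream of egl-27, which encodes a GATA-type zinc finger protein related to a subunit of the NuRD chromatin-remodelling complex. These 9 peaks on chromosome II had signals of 112 to 595 in the IDR set, with a median of 190, and the highest, 7384 bp upstream, had 325 in replicate 1 and 271 in replicate 2. Next was dmd-6, of the DM-domain family of transcription factors, with 8 peaks from 2224 to 11289 bp upstream and signals of 113 to 1162. The strongest of the dmd-6 peaks had 625 in replicate 1 and 541 in replicate 2, and the interval of 35563 bp that it shares with irld-18 also held a peak of 1451 lying 13374 bp from the irld-18 start. F58H10.1 had 8 peaks on both sides of its start, W04D12.1 had 7 downstream of its start and C30G12.2 had 7 upstream. Of these, 1 F58H10.1 peak had 30.1 in replicate 1 and 138 in replicate 2, and the W04D12.1 peak 2631 bp downstream had 38.4 in replicate 1 and 88.3 in replicate 2, so both were more than 2-fold apart.

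The peak farthest from any protein-coding start was 28650 bp downstream of sql-1, in the interval between the ends of sql-1 and aakg-1, with a signal of 361 in the IDR set (197 in replicate 1, 161 in replicate 2). The next, 16228 bp downstream of Y23H5B.5, had 253 in the IDR set (159 in replicate 1, 96.0 in replicate 2). The peak 12789 bp upstream of C31H1.2 had 930 in the IDR set (553 in replicate 1, 383 in replicate 2). All of these were listed in both replicates. A promoter peak was also present at 400 of the 1315 genes whose start was nearest to a distal peak, or 30.4% (28.0% to 33.0%). Of 8153 other genes that are nearest to some distal sequence, 1061 had one, or 13.0% (12.3% to 13.8%). Over all 17242 autosomal protein-coding genes it was 3531, or 20.5% (19.9% to 21.1%). Both classes of peak are denser in the middle of the chromosomes, and the part of that in these differences was not tested.

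Grouped by the function of the nearest gene, and among lists with 10 or more peaks, distal peaks were most dense beside the lists of pan-neuronal and synaptic genes, of oxidative phosphorylation and the citric acid cycle, and of body wall muscle. The lists also differ in where their genes lie along the chromosomes, and the part of that in these densities was not tested. Of 19 autosomal genes of the pan-neuronal and synaptic list, 11 were nearest to a peak. Of all 17242 autosomal protein-coding genes, 1315 were, and 8153 others were nearest to distal sequence without a peak. The list had 16 peaks at 361 per Mb of its distal sequence, against 95.5 per Mb for all genes. The strongest was 1097 bp upstream of egl-3, a convertase that processes neuropeptides, with 706 in the IDR set (349 in replicate 1, 355 in replicate 2). The peak upstream of unc-64, the syntaxin of synaptic vesicle fusion, had 666, and the one upstream of unc-104, the kinesin that carries synaptic vesicles, had 404. The list's median signal was 212, against 174 over all distal peaks. Some of its 16 peaks lay 9596 to 11571 bp downstream of the snt-1 start. They are in the interval of 18574 bp between snt-1 and egl-27, which also holds the 9 egl-27 peaks.

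Of 35 body wall muscle genes, 14 were nearest to 17 peaks, at 305 per Mb and with a median signal of 230. They included act-1, an actin, with 909 in the IDR set (464 in replicate 1, 444 in replicate 2). The myosin heavy chain gene unc-54 had a peak of 424 located 1595 bp upstream, and ttn-1, which encodes the giant protein titin, had one of 323. Of 79 genes of oxidative phosphorylation and the citric acid cycle, 8 were nearest to 12 peaks, at 335 per Mb and with a median of 276. Among them were nduf-7 of respiratory complex I with 726, the isocitrate dehydrogenase gene idh-1 with 724 and the malate dehydrogenase gene mdh-2 with 579.

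Fatty acid metabolism had 16 peaks at 11 of its 74 genes, 227 per Mb, with a median signal of 293. The peak 2516 bp upstream of cpt-1, a carnitine palmitoyltransferase of fatty acid import into mitochondria, had 1344 in the IDR set (744 in replicate 1, 603 in replicate 2). The peak 1233 bp upstream of fat-2, a fatty acid desaturase, had 1202 in the IDR set (581 in replicate 1, 621 in replicate 2). The acyl-CoA synthetase gene acs-2 had one of 576 and ech-2, an enoyl-CoA hydratase gene, one of 497. Some of these lists rest on few intervals: the 5 peaks of translation factors and tRNA synthetases came to 321 per Mb from 0.0156 Mb of sequence. The list of oxidative phosphorylation and the citric acid cycle rests on 0.0359 Mb, nearest to 21 of its 79 genes. The pan-neuronal and synaptic list rests on 0.0443 Mb and the body wall muscle list on 0.0558 Mb.

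Among transcription factors the lists differed. The other nuclear hormone receptor genes, which are the family of NHR-71 itself, had 47 peaks at 28 of 247 genes, 126 per Mb, with a median of 253. They were led by nhr-88, then by nhr-20 with 1719 in the IDR set (905 in replicate 1, 820 in replicate 2), nhr-21 with 800 and nhr-34 with 775. Basic helix-loop-helix genes had 5 peaks at 55.7 per Mb with a median of 458, among them hif-1, mml-1, a Myc and Mondo family factor, with 903 and sbp-1, the regulator of lipid synthesis, with 458. Homeobox genes had 15 peaks at 71.1 per Mb and a median of 109, and the highest, at ceh-48, had 331. Below it stood ceh-43, the Distal-less factor, with 267 and the Hox gene lin-39 with 182. The GATA list had 11 peaks at 261 per Mb, and 9 of them were those of egl-27. The list of forkhead, Sox, T-box, ETS and bZIP factors had 12 peaks at 99.3 per Mb, near the density of all genes, with zip-7 at 539 and daf-16 as above.

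The remaining lists ranged from 260 to 12.8 peaks per Mb, on both sides of the 95.5 of all genes. Wnt, Notch, TGF-beta and EGF genes had 10 peaks at 142 per Mb, which included daf-4, a TGF-beta family receptor, with 400, and the ligand gene dbl-1, at which both replicates had 147. Axon guidance and adhesion genes had 6 peaks at 49.4 per Mb, the highest of which, 184, was at the cadherin gene hmr-1. Neuropeptide and insulin genes had 17 at 65.2 per Mb, and besides ins-13 this list held nlp-40, a peptide of the defecation rhythm, with 2405 at 5521 bp downstream. Intestinal genes had 9 at 110 per Mb, the highest of which, 328, was at ftn-2, a ferritin. Cuticle collagens had 8 at 57.3 per Mb, chemoreceptors 40 at 29.4 per Mb, C-type lectins 4 at 22.9 per Mb and F-box genes 4 at 12.8 per Mb. Chemoreceptors thus took 2.16% of the peaks although 7.02% of distal bases are nearest to them. DNA replication and cell cycle genes had 10 peaks at 260 per Mb, led by the cullin gene cul-5 with 505 and cki-1, an inhibitor of cell cycle kinases, with 351.

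Ribosomal protein genes, which had 39 promoter peaks, had 5 distal peaks at 106 per Mb, against 95.5 for all genes. The highest of the 5, 4176 bp upstream of rps-28, had 208. Chaperones had 3 at 76.5 per Mb, with 187 at hsp-12.2, and core histones 1 at 57.6 per Mb, with 89.5 at his-1. The timing gene lin-41 had the only peak of the heterochronic list (65.8 per Mb), with 854 in the IDR set (418 in replicate 1, 446 in replicate 2). The nhr-71 gene is on X, so its own locus can hold none of these peaks. At unc-119 on chromosome III, the locus mutated in the strain, no distal peak lay within 20 kb, and the nearest was 54630 bp away, beside zig-5, with 88.8 in the IDR set (40.0 in replicate 1, 45.0 in replicate 2).

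Non-coding genes of several kinds were frequent neighbours. Within 500 bp of the summit, 451 peaks (24.4%, 22.5% to 26.4%) had a non-coding gene or pseudogene other than a piRNA, against 18.4% of other autosomal IDR peaks and 26.2% of all distal intergenic bases. The replicate lists gave 24.3% ± 0.511 (SD, n = 2). This total pools kinds of gene that lay above and below their share of distal bases.

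Transfer RNA genes had a high density of peaks around them. There were 38 peaks within 500 bp of a tRNA gene, 2.05% of distal peaks (1.50% to 2.80%), near the 2.19% of other autosomal IDR peaks, while 0.382% of distal bases are that close. This is 513 peaks per Mb. Of 89 tRNA genes centred in distal sequence, 38 had such a peak. The strongest was 5 bp from B0350.t1, on chromosome IV from 5966883 to 5967353, with 842 in the IDR set (425 in replicate 1, 421 in replicate 2). It was followed by C16D9.t4 with 739 and F13G11.t1 with 657, and the F13G11.t1 peak is one of those of dmd-6. In the replicate lists 2.10% ± 0.211 of distal positions were near a tRNA gene. Copies of tRNA genes are alike in sequence, and how the authors placed reads that fit several copies is not given in the sources used here.

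Genes of small nucleolar RNAs, which guide the modification of other RNAs, had 40 peaks within 500 bp, or 598 per Mb, at 35 of 62 genes centred in distal sequence. This is 2.16% of distal peaks, near the 2.08% of other autosomal IDR peaks. The peaks there were strong, with a median signal of 383 against 172 beyond. The highest stood 37 bp from F25H2.15, with 1179 in the IDR set (664 in replicate 1, 521 in replicate 2), and 45 bp from T26A8.6, with 1034 in the IDR set (577 in replicate 1, 463 in replicate 2). Small nuclear RNA genes, which include the spliced leader genes, had 7 peaks within 500 bp, and 6 of the 39 centred in distal sequence had one. These 7 peaks are 0.378% of distal peaks, against 0.834% of other autosomal IDR peaks and 0.189% of distal bases. The 7 peaks were led by the pair at sls-2.2.

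MicroRNA genes had 17 peaks within 500 bp, or 242 per Mb, at 16 of 73 genes, with a median signal of 153. This is 0.918% of distal peaks, against 0.646% of other autosomal IDR peaks and 0.362% of distal bases. The highest peak near a microRNA gene was 131 bp from cel-mir-53, with 1053 in the IDR set (549 in replicate 1, 508 in replicate 2). It was followed by 888 at 249 bp from cel-mir-80 and 753 inside cel-mir-8209. Long intergenic non-coding RNA genes had 46 peaks within 500 bp, or 192 per Mb, and 28 of these summits were inside the gene. The 46 are 2.48% of distal peaks, against 0.604% of other autosomal IDR peaks and 1.24% of distal bases. Besides linc-128 at the cmd-1 peak, linc-91 held a peak of 1247 and linc-110 one of 982. The remaining small or unclassified ncRNA genes had 321 peaks within 500 bp, 17.3% of the class, against 13.8% of other peaks and 7.52% of distal bases. Antisense RNA genes had 4 peaks, the highest of them, 355, near anr-58. The 4 are 0.216% of distal peaks, against 0.542% of other autosomal IDR peaks and 0.109% of distal bases.

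Pseudogenes and piRNA genes stood on the other side. Pseudogenes are near 17.1% of distal bases and had 53 peaks within 500 bp, 2.86% of the class or 16.0 per Mb. The highest, 181 bp from F07H5.5a, had 2065 in the IDR set (1105 in replicate 1, 970 in replicate 2). Genes of piRNAs, small RNAs of the germline that in worms lie mostly on chromosome IV, are near 10.5% of distal bases and had 115 peaks, 6.21% or 56.6 per Mb, of which 102 were on IV. The peaks near piRNA genes had a median signal of 199, and on IV the median of all distal peaks was 189. None of the peaks was within 500 bp of the 20 rRNA genes, where a count of 0 of 1852 has a Wilson upper bound of 0.207% and where 0.136% of distal bases lie. How the authors placed reads that fit several places is not given, and its part in these low shares was not tested.

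**Figure D4:**
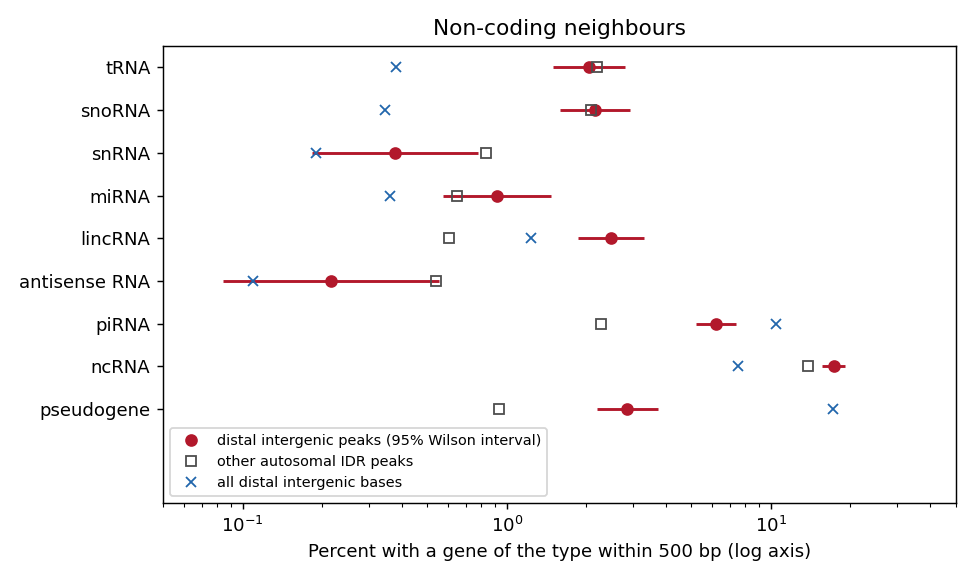
Share of distal intergenic peaks (circles with 95% Wilson intervals), of other autosomal IDR peaks (squares) and of all distal intergenic bases (crosses) with a gene of each type within 500 bp, in percent on a log axis. Circles lie right of the crosses for tRNA (2.05% and 0.382%) and snoRNA (2.16% and 0.345%) and left of them for piRNA (6.21% and 10.5%) and pseudogenes (2.86% and 17.1%).

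The DNA at the summits was richer in G and C than the DNA around it. In the 100 bp centred on the summit the median GC content was 42% (quartiles 36% and 48%), against 33% in the windows 300 bp to either side, 34% in all distal intergenic windows of 100 bp and 43% at promoter peaks. Over the same 4 groups, from weakest to strongest, the median was 39%, 40%, 42% and 46%. Averaged by position, GC content at distal peaks was 42.3% next to the summit, 40.2% at 75 bp and 37.6% at 125 bp before it. At promoter peaks it was 43.7% next to the summit and 36.5% and 33.3% at the same distances. Sequence marked as repeat covered 19.8% of the bases of these windows at distal peaks, 21.9% at promoter peaks and 41.2% of all distal bases. The part of reads that fit several places in this difference was not tested.

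**Figure D5:**
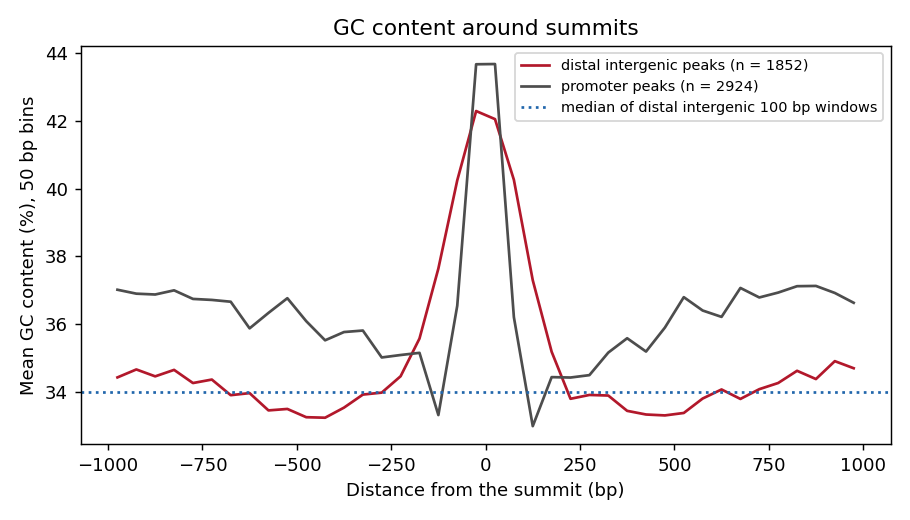
Mean GC content in bins of 50 bp (vertical axis, percent) by distance from the summit in bp (horizontal axis) for 1852 distal intergenic peaks and 2924 promoter peaks, with the median of distal intergenic windows as a dotted line. The rise is broader at distal peaks, at 37.6% against 33.3% for promoter peaks 125 bp before the summit.

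Of the words searched, GAGAGAG stood highest against its surroundings. It was present on either strand in the 100 bp of 282 distal peaks, or 15.2% (13.7% to 16.9%), as in the T04C4.3 and hrg-5 windows above, against 2.48% and 2.00% of the left and right flanks. Of all distal intergenic windows 1.69% held it, and 3.17% when these were weighted to the GC content of the peaks. It was in 8.86%, 12.5%, 15.8% and 23.8% of peaks over the 4 groups from weakest to strongest, in 14.7% ± 0.206 of distal positions of the replicate lists (SD, n = 2), in 10.3% of promoter peaks and in 13.7% of intron peaks. CGCAGAG, which can overlap it and was chosen after the sequences had been seen, was in 98 peaks, or 5.29%, against 0.810% and 0.864% of the flanks. It was in 5.78% of promoter peaks and 3.72% of intron peaks.

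The palindrome CACGTG, the E-box bound by basic helix-loop-helix factors, was in 129 peaks, or 6.97% (5.89% to 8.22%), against 1.51% and 1.94% of the flanks and 1.40% of distal windows. Promoter peaks had CACGTG in 4.99% and intron peaks in 7.49%, so it was not particular to distal peaks. Its share in distal peaks was 5.18% in the weakest and 9.29% in the strongest of the 4 groups. TGATAA, a form of the site of GATA factors, was in 253 peaks, or 13.7% (12.2% to 15.3%), against 10.3% and 10.7% of the flanks, 8.92% of distal windows and 6.22% of those weighted for GC content. Its share was 16.4%, 15.8%, 14.0% and 8.42% over the 4 groups from weakest to strongest, an order opposite to that of the repeat and the palindrome. GC content rises over the same groups, from 39% to 46%, and the part of that in these orders was not tested. AGATAA, which shares the core GATAA, was in 7.02% of peaks and in 7.24% and 6.21% of the flanks. Over the 4 groups its share was 7.78%, 6.05%, 9.50% and 4.75%, with no steady order.

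AGGTCA, the short site that many nuclear receptors bind, was in 72 peaks, or 3.89% (3.10% to 4.87%). The flanks had 2.65% each, and GC-weighted distal windows had 3.45%, which is inside that interval. The AP-1 type word TGACTCA was in 1.51% of peaks and 0.810% and 1.03% of the flanks. GGGCGG was in 3.89% of peaks, in 3.60% of GC-weighted distal windows and in 6.19% of promoter peaks. CTGTTTC was in 3.08% of peaks, 2.54% and 2.38% of the flanks, 2.82% of distal windows and 1.93% of GC-weighted distal windows. GGTTCGA, the tRNA word, was in 15 peaks, or 0.810%, against 0.432% and 0.810% of the flanks. Of distal windows 0.835% held GGTTCGA, and 1.53% when weighted for GC content. The run TTTTTTT was in 10.9% of peaks, 24.1% and 24.4% of the flanks and 12.6% of GC-weighted distal windows. These matches describe the letters of the windows and not sites of a factor.

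Ensembl annotation of the summit set the class, so the label itself could not fail here. The counts below concern the rest of each interval and other annotation. The whole interval of 1574 peaks (85.0%) was clear of promoter windows and gene bodies, while that of 143 reached into a promoter window and that of 150 into a gene body. RefSeq placed 1 summit inside a protein-coding gene. Summits inside a non-coding gene or pseudogene numbered 162, or 8.75%, and without such bodies the class would be 25.4% of autosomal peaks.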

How the data were processed

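Peak lists from 2 replicates of 1 group were used. The authors deposited, in the narrowPeak format, 1 list of 30000 positions per replicate, a pooled list and the IDR set, each with a signal value and a summit offset per peak. The replicate and pooled lists compare the immunoprecipitated library with a control, as the submitters' file list states. For the read alignment, the caller, the IDR cut-off and the signal scale, a description was not given in the sources used here. Read depth is unknown, since the lists hold no read counts. The number of replicates limits the precision.

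Coordinates are on ce11 (WBcel235) and 1-based. Ensembl release 115 gave the starts and bodies of 17242 autosomal protein-coding genes, and RefSeq gave the sequence. Distal intergenic bases were found by the same rule as the peaks, base by base. A replicate's value at a peak is that of the position over its summit whose own summit is closest. Replicate lists used alone were reduced to as many of their strongest positions as the IDR set holds. Words were counted on both strands in 100 bp. GC-weighted shares weight distal windows to the GC classes of the peaks. The steps were tested on simulated data. Scripts ran in Python 3.11.15 with pandas 2.3.3, NumPy 2.4.6, Matplotlib 3.10.9 and SciPy 1.17.1.

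The text names the nearest genes of the 25 strongest peaks, of the strongest peaks of each of 23 gene lists (up to 4, chemoreceptors left out) and of each non-coding type (up to 4), of the 5 farthest peaks and of the 5 genes with the most peaks, besides nhr-71 and unc-119. The text does not name every gene of these sets. The class, the lists and the words were chosen with earlier results of these data known. M04B2.7 and daf-16, as examples of peaks absent from a replicate, and the word CGCAGAG were chosen after their values were seen. Alternatives were other promoter windows, the stronger 50% of the IDR set, each replicate alone, interval midpoints, 1 summit per interval, other distances and window sizes, and non-coding bodies left out.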

Additional observations from a re-analysis of the deposited data

How the results depend on the processing

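No paired analysis was possible because there is 1 group. Of 71 alternatives for 8 main values, 35 stayed within the spread of the main value and 36 moved. That spread was the SD between replicates, except for the share found in both replicate lists, where it was the Wilson interval. For GC content the SD was 0, so any change counted as moved. None has a test. A promoter window from 500 bp upstream gave 2336 peaks and one from 2000 bp gave 1200. With 500 bp the distal share was 35.1%, the median signal 179, the median distance 1866 bp, the upstream share 81.0% and the TGATAA share 13.1%. With 2000 bp these were 18.0%, 168, 3203 bp and 67.8%, and the non-coding share within 500 bp was 25.9%. The stronger 50% of the IDR set gave a distal share of 23.9%, a median signal of 356, a distance of 2270 bp, a non-coding share of 26.1%, 98.2% found in both replicate lists, a GC content of 45%, a TGATAA share of 11.5% and a GAGAGAG share of 20.5%. A single replicate list gave distal shares of 26.8% to 27.2%, median signals of 89.4 to 93.0, distances of 2292 to 2319 bp, upstream shares of 76.0% to 76.7% and TGATAA shares of 12.4% to 12.8%. A single list has its own signal scale. With non-coding bodies left out the distal share was 25.4%, the median signal 171, the non-coding share 17.2% and the TGATAA share 14.0%. The non-coding share was 19.4% within 200 bp and 31.2% within 1000 bp. The share in both replicates was 78.6% with summits within 100 bp and 98.4% in the full lists. In 200 bp windows the GC content was 41% and the TGATAA share 21.4%, against 13.7% in 100 bp. Interval midpoints and 1 summit per interval moved none of the 8. These 2 alternatives changed little in the input. The median interval was 420 bp wide, and in many such intervals the midpoint is the summit. Only 77 peaks (4.16%) shared an interval with another summit. Intervals clear of windows and bodies, and the alternatives for GAGAGAG and CACGTG, were added after seeing the data. Depth and the control set what these lists can show, and neither was measured here.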
